A study of Rattus norvegicus with 18 samples.

Results

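This account compares the livers of rats given the high dose of vitamin D, 5000 U/kg, with those of rats given the moderate dose, 1000 U/kg. Its members are the 12 liver libraries, of 18 in the series, that are titled with either dose, 6 rats each. All 12 rats were adult females of about 1 year and had received vitamin D for 3 months, so the groups differ by dose and neither is an untreated control. The strain is not named in the sources used here, and the labels do not say whether a unit per kg refers to body weight or to feed. RNA was sequenced from the 3' end of polyadenylated transcripts (QuantSeq 3' FWD libraries), and 1 library was made per rat. The deposited values are read counts per Ensembl rat gene ID.

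The liver takes up vitamin D and adds its first hydroxyl group, which gives the circulating form. The kidney makes the active hormone, which binds the vitamin D receptor, a nuclear receptor that pairs with the retinoid X receptor on DNA. Hepatocytes carry little of this receptor, while non-parenchymal liver cells such as stellate and Kupffer cells carry more. The liver also secretes the carrier protein of vitamin D, and high vitamin D intake acts on calcium balance mainly through gut, kidney and bone.

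Of the 30560 IDs in each file, 0 could be paired with a symbol from the tables at hand, so genes below are given by ID, with no function named. For the same reason the labelled tissue could not be checked against liver markers, and the gene lists of vitamin D handling, lipid and bile acid metabolism, clock, stress response and liver cell types were not applied. The 4 IDs named are those separated most widely between the doses, 2 in each direction.

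The 12 libraries differed more by rat than by dose. Gene counts per library were 9756080 ± 1105700 (SD, n = 6) at 1000 U/kg and 8083260 ± 988903 (n = 6) at 5000 U/kg, with an exact two-sided permutation p of 0.026 over 924 splits (Benjamini-Hochberg adjusted p = 0.156 over 6 library measures). Genes with at least 1 count numbered 14859 ± 259 and 14836 ± 203 in the same order (exact permutation p = 0.859). The 10 most abundant genes held 35.8% ± 4.80 of gene counts at 1000 U/kg and 32.1% ± 3.68 at 5000 U/kg (exact permutation p = 0.177), a difference of -3.73 percentage points that was -1.94 without replicate 5 at 1000 U/kg and -2.41 without replicate 5 at 5000 U/kg. The share of reads outside annotated genes was 9.35% ± 1.26 and 9.62% ± 0.356 (exact permutation p = 0.649).

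Spearman correlations of log2 CPM, counts scaled to a common library size, averaged 0.893 over the 15 pairs of livers within 1000 U/kg, 0.917 over the 15 pairs within 5000 U/kg and 0.900 over the 36 pairs that cross the doses. Livers of different dose were thus about as alike as livers of the same dose. Replicate 5 at 1000 U/kg stood apart, with a mean correlation of 0.799 with its own group, where the other 5 livers of that dose had 0.907 to 0.919. At 5000 U/kg the lowest mean correlation was that of replicate 2, 0.886, and the others had 0.906 to 0.940. Counts of genes of small p are given with and without these libraries. Counts of large fold change are given with and without replicate 5 at 1000 U/kg.

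**Figure D1:**
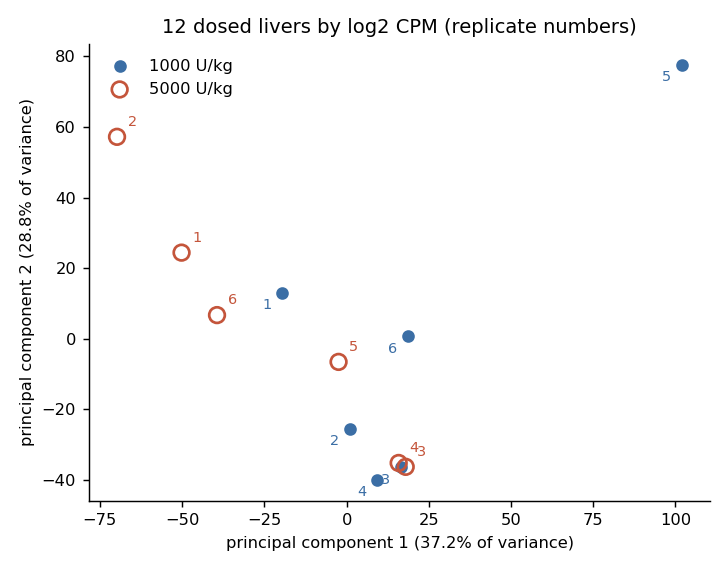
The 12 livers on the first (x axis) and second (y axis) principal components of log2 CPM, with replicate numbers, filled points for 1000 U/kg and open circles for 5000 U/kg. Replicate 5 at 1000 U/kg lies alone at 102 and 77.6, replicate 2 at 5000 U/kg at -69.8 and 57.2, and the replicates 3 and 4 of both doses lie together at the bottom.

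The first component held 37.2% and the second 28.8% of the variance. Replicates 1, 2 and 6 at 5000 U/kg lay at -50.2, -69.8 and -39.4 on the first component, below all livers at 1000 U/kg, of which the lowest was replicate 1 at -19.6. The other 3 livers at 5000 U/kg lay between -2.44 and 18.0, among those of the lower dose.

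No liver transcript passed the test between the doses. The edgeR quasi-likelihood test, fitted to the 12 libraries, called 0 of 10712 genes (0%) at a Benjamini-Hochberg adjusted p under 0.05, and the smallest adjusted p was 0.550. DESeq2 (smallest adjusted p = 0.0883) and limma voom (0.228) also called 0. Before adjustment, edgeR gave 937 genes (8.75% of those tested) a p under 0.05. The mean at 5000 U/kg was higher for 445 of them (4.15% of those tested) and lower for 492 (4.59%).

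Most transcripts sat close to the same level at both doses. The log2 fold change of 5000 against 1000 U/kg lay within 0.5 of 0 for 75.2% of tested genes and within 1 for 94.7%, and its median was -0.033. At this spread a typical gene was measured to within 1.58-fold either way, the median half-width of the 95% interval. The interval lay wholly within a 2-fold change for 53.1% of genes and within a 4-fold change for 92.7%. For the remaining genes the interval held, or reached past, a 2-fold difference in at least 1 direction.

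Large fold changes were mostly downward with all 12 libraries and close to balance without 1 rat. A log2 fold change below -1 was found for 475 genes and above 1 for 92. Without replicate 5 at 1000 U/kg these numbers were 66 and 73. In that library 117 tested genes each exceeded 10 times their level in every other liver, and all 117 were among the 475. These 117 genes summed to 76729 CPM there and to 721 to 1572 CPM in the 11 other livers, and they had a median of 150 CPM in replicate 5. Over the other 11 libraries, 1 gene stood out to this degree, in replicate 3 at 5000 U/kg.

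**Figure D2:**
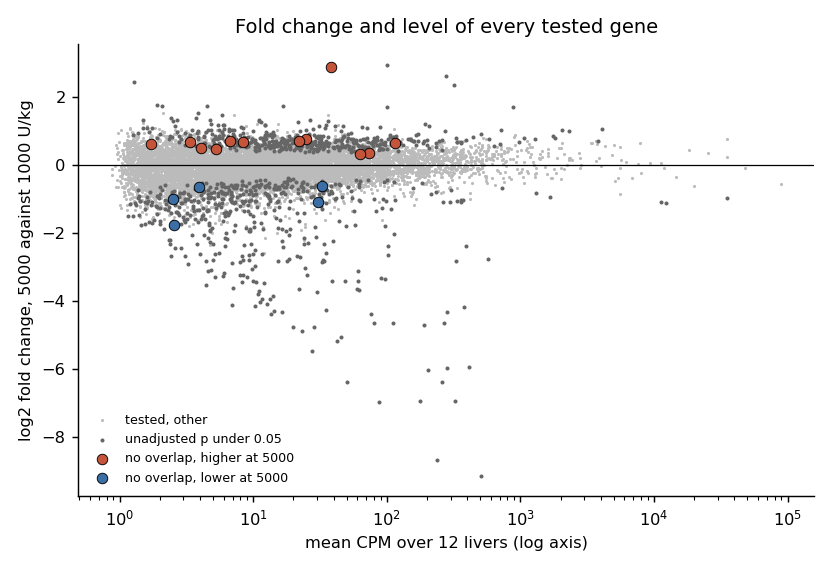
Log2 fold change of 5000 against 1000 U/kg (y axis) against mean level in CPM over the 12 livers (x axis, log scale) for the 10712 tested genes. Dark points have an unadjusted p under 0.05, large coloured points are the 12 genes (higher) and 5 genes (lower) whose ranges do not overlap, and 110 of the 125 genes below -2 are ones that replicate 5 at 1000 U/kg held at over 10 times every other liver.

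Many genes of small p also had their highest level in 1 of 2 rats. Among all tested genes, replicate 5 at 1000 U/kg was the highest of the 12 libraries for 25.2% and replicate 2 at 5000 U/kg for 18.9%. Among the 492 genes of small p and lower mean at 5000 U/kg, replicate 5 at 1000 U/kg was the highest for 412 (83.7%). In 208 of the 492 it held more than 50% of the dose's summed level. Among the 445 genes of small p and higher mean at 5000 U/kg, replicate 2 of that dose was the highest for 300 (67.4%). Since a gene with 1 high library has a high mean in that library's dose, these shares describe the rats behind the means and are no test. Each gene of small p had its highest level in a library of the dose with the higher mean. Only that dose's libraries competed there, so the shares over all tested genes, where all 12 competed, are no like-for-like base.

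**Figure D3:**
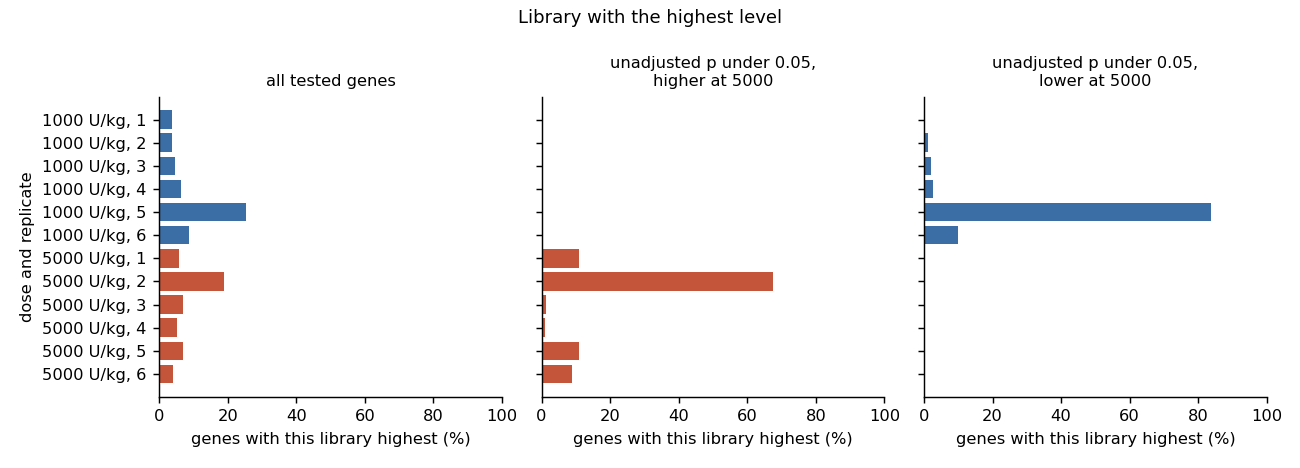
Share of genes (x axis, percent) for which each of the 12 libraries (y axis, dose and replicate) held the highest level, among all tested genes and among genes of unadjusted p under 0.05 in each direction. Replicate 5 at 1000 U/kg takes 83.7% of the genes lower at 5000 U/kg and replicate 2 at 5000 U/kg takes 67.4% of those higher.

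Leaving out replicate 5 at 1000 U/kg, edgeR called 0 of 10799 genes and gave 514 a p under 0.05 before adjustment, 333 with the higher mean at 5000 U/kg and 181 with the lower. Of the 492 genes lower with all 12 libraries, 119 kept a small p and the lower mean, and 43 turned to a higher mean. Of the 445 genes higher with all libraries, 261 kept a small p and 0 turned. Leaving out replicate 2 at 5000 U/kg gave 479 genes of small p, 130 higher and 349 lower. Without both libraries, 271 of 10692 genes (2.53%) had a small p, 142 higher and 129 lower, and 0 were called.

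Ranks of libraries are less open to 1 high value. Each gene gives 36 pairs of 1 liver at 5000 and 1 at 1000 U/kg. The 5000 U/kg liver was higher in at least 33 of the 36 pairs for 112 genes (1.05% of those tested) and lower in at least 33 pairs for 73 (0.681%). These shares are a description and were not set against the share that chance gives. The genes higher at 5000 U/kg by this count had a median log2 fold change of 0.67, and replicate 2 of that dose was the highest library for 50 of them. The genes lower at 5000 U/kg had a median of -0.65, and replicate 5 at 1000 U/kg was the highest for 48.

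Complete separation of the doses was rare. For 17 genes (0.159% of those tested) the ranges of the 6 and 6 livers did not overlap. For 12 of these (0.112%) all 5000 U/kg livers lay above all 1000 U/kg livers, and for 5 (0.0467%) they lay below. With 6 livers in each group, chance separates 0.216% of genes, above the 0.159% seen. The 12 higher genes had log2 fold changes of 0.32 to 2.90 (median 0.68) and mean levels of 1.72 to 115 CPM, and 3 of them averaged at least 50 CPM. The 5 lower genes had log2 fold changes of -1.77 to -0.61 (median -0.98) and mean levels of 2.53 to 32.7 CPM, and replicate 5 at 1000 U/kg was the highest library for 4 of them. Without that library the median log2 fold change of the lower genes was -0.46 and that of the higher genes 0.58. Without replicate 5 at 1000 U/kg, 27 genes (0.250% of those tested) did not overlap, and without replicate 1 of that dose 117 (1.07%). Separation comes more easily with 1 liver fewer, and the part of this in either count was not tested. The gap between the nearest livers of the doses was at most 0.44 on the log2 scale.

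The 6 undosed livers were left out of this contrast. In them the median of these genes was rarely beyond the 1000 U/kg level on the side away from 5000 U/kg. Of the 12 higher genes, the undosed median lay between those of the doses for 8, beyond the 5000 U/kg median for 3 and below the 1000 U/kg median for 1. Of the 5 lower genes it lay between the doses for 3 and on either side of them for the other pair of genes. The genes were chosen for their separation at these doses, and no test was made of this order.

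The widest gap was that of ENSRNOG00000070397. Its levels at 1000 U/kg were 10.3, 10.5, 8.96, 10.1, 5.86 and 8.20 CPM in replicates 1 to 6, from 55 to 106 reads per library. At 5000 U/kg they were 20.04, 15.2, 15.2, 14.2, 281 and 57.2 CPM, from 102 to 2503 reads. Every liver at the high dose was above every liver at the moderate dose, and replicates 5 and 6 were far above the other 4. On the log2 scale the difference was 2.90 (SE 0.76, 95% interval 1.26 to 4.54; adjusted p = 0.550 by edgeR), with means of 8.98 ± 1.76 and 67.1 ± 106 CPM (n = 6 each). The ratio of the medians, 9.52 and 17.6 CPM, was 1.85. Without replicate 5 at 5000 U/kg the difference was 1.42 (SE 0.37; adjusted p = 0.565 by edgeR). With DESeq2 on all 12 libraries the adjusted p was 0.0883, and over all alternatives it lay between 0.0883 and 0.997. Undosed livers had a median of 7.06 CPM and a range of 1.87 to 23.1 CPM, which overlaps both doses.

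The second gene, ENSRNOG00000032395, differed evenly across rats. It stood at 5.86, 5.08, 5.01, 4.66, 5.54 and 4.32 CPM at 1000 U/kg, from 38 to 55 reads. At 5000 U/kg it stood at 8.97, 8.79, 9.33, 7.18, 8.19 and 7.43 CPM, from 59 to 77 reads. No single liver carried the difference, and the spread within each dose was small. The gene was picked for its separation, and at these reads spread between rats was not told apart from counting noise. The means were 5.08 ± 0.562 and 8.31 ± 0.869 CPM (n = 6 each), 0.71 apart on the log2 scale (SE 0.18, 95% interval 0.31 to 1.10; adjusted p = 0.550 by edgeR). The log2 fold change stayed between 0.67 and 0.75 over all 21 alternatives, with adjusted p of 0.228 to 0.997 by the edgeR, DESeq2 and limma fits. Undosed livers spanned 4.92 to 10.5 CPM with a median of 6.03, across both dosed groups.

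Among the genes lower at 5000 U/kg, ENSRNOG00000066252 had the widest gap. It stood at 4.15, 4.26, 4.35, 4.09, 7.78 and 4.05 CPM at 1000 U/kg and at 3.03, 3.43, 2.77, 2.43, 3.48 and 3.28 CPM at 5000 U/kg. At 1000 U/kg 5 livers lay close together and replicate 5 was high. The log2 difference was -0.64 (SE 0.25; adjusted p = 0.550 by edgeR), and -0.46 (SE 0.21; adjusted p = 0.778 by edgeR) without replicate 5. It rested on 33 to 73 reads per library at 1000 U/kg and 19 to 31 at 5000 U/kg, and undosed livers had a median of 3.10 CPM (1.10 to 5.70).

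ENSRNOG00000070970 had the next gap. Its levels were 2.02, 2.44, 2.63, 1.90, 13.01 and 1.71 CPM at 1000 U/kg and 1.51, 1.04, 1.31, 1.16, 0.897 and 0.983 CPM at 5000 U/kg. Replicate 5 at 1000 U/kg was again far above its group. The log2 difference of -1.77 (SE 0.53; adjusted p = 0.550 by edgeR) was -0.90 (SE 0.29; adjusted p = 0.778 by edgeR) without that liver. With 7 to 13 reads per library at 5000 U/kg, its levels there are imprecise. The part of counting error in its spread was not tested. Undosed livers had a median of 1.40 CPM (0.250 to 5.07).

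**Figure D4:**
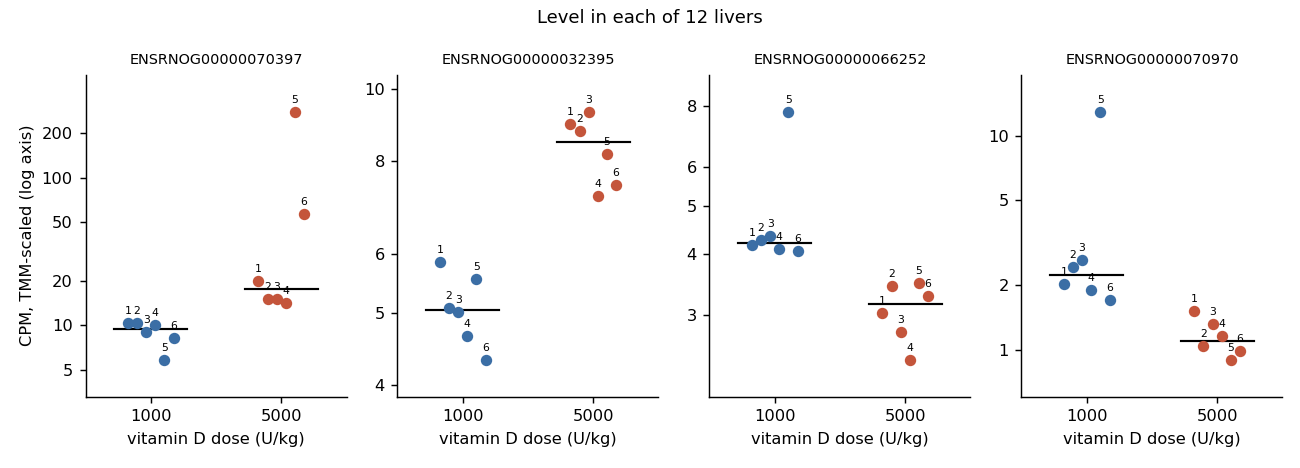
TMM-scaled CPM (y axis, log scale) of the 4 named genes in each liver at 1000 and 5000 U/kg (x axis), with replicate numbers and the median of each dose as a bar. The doses do not overlap for these genes, and ENSRNOG00000032395 alone of the 4 has no liver far from its group, at 4.32 to 5.86 against 7.18 to 9.33 CPM.

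The direction of small differences varied with the level of the transcript. Of 1010 genes with a mean of 100 CPM or more, 60.7% had a higher mean at 5000 U/kg (median log2 fold change 0.10). Of 3010 genes at 1 to 5 CPM, 42.6% did (median -0.087). Without replicate 5 at 1000 U/kg these shares were 55.7% and 46.2%, with medians of 0.037 and -0.036. In that library the 10 most abundant genes held 44.8% of gene counts, where the 11 others had 25.4% to 36.8%. Its part in these shares was not tested beyond leaving it out.

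The 10 most abundant transcripts on average, which held 33.2% of all counts after scaling, had log2 fold changes of -1.10 to 0.78, 4 higher and 6 lower at 5000 U/kg. The doses overlapped for all 10. Of the 100 most abundant, 62 had a higher mean at 5000 U/kg (46.9% over all tested genes) and 13 had an unadjusted p under 0.05 (8.75% over all). The doses overlapped for all 100, where 0.159% of all tested genes did not overlap. The single most abundant gene on average was also the most abundant gene in 9 of the 12 libraries.

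Livers varied among themselves at both doses, and which dose varied more depended on the libraries kept. The biological coefficient of variation, edgeR's estimate of the spread between animals beyond counting noise, was 0.493 at 1000 U/kg and 0.399 at 5000 U/kg. Without replicate 5 it was 0.322 at 1000 U/kg, and without replicate 2 it was 0.364 at 5000 U/kg. The median SD of a gene's log2 CPM between livers was 0.52 at 1000 and 0.47 at 5000 U/kg, and 0.38 at 1000 U/kg without replicate 5. Without replicate 2 it was 0.42 at 5000 U/kg. The SD was larger at 5000 U/kg for 44.2% of genes with all libraries and for 64.0% without replicate 5 at 1000 U/kg. As 1 value per library, the median distance of a liver from its dose's median was 0.292 ± 0.167 log2 units at 1000 U/kg and 0.292 ± 0.0899 at 5000 U/kg (n = 6 each, exact permutation p = 0.987, adjusted p = 0.987). The distances were taken from each dose's own median and not computed again for each split, so this p is only approximate.

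**Figure D5:**
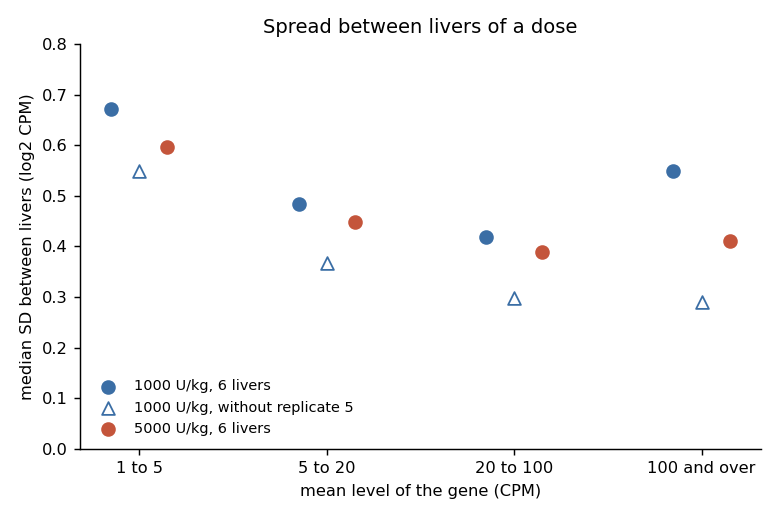
Median SD of log2 CPM between livers (y axis) for genes grouped by mean level in CPM (x axis), at 1000 U/kg with 6 livers (filled) and without replicate 5 (open triangles), and at 5000 U/kg. The 1000 U/kg points lie above those of 5000 U/kg with replicate 5, and below them without it, in all 4 classes drawn.

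The spread was widest for scarce transcripts. At 1 to 5 CPM the median SD was 0.67 at 1000 U/kg and 0.60 at 5000 U/kg, and at 20 to 100 CPM it was 0.42 and 0.39. At 100 CPM and over it was 0.55 and 0.41, and the first of these was 0.29 without replicate 5, so the excess among abundant transcripts at 1000 U/kg came with that liver. The 95% interval lay within a 2-fold change for 26.8% of genes at 1 to 5 CPM and for 69.6% at 20 to 100 CPM. The 14 tested genes under 1 CPM are left out of this description.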

How the data were processed

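The authors deposited raw read counts per gene, whole numbers in a separate file for each library. The submitters' processing notes name FastQC, STAR, HTSeq and DESeq2. On versions, build, annotation and strand setting nothing is given in the sources used here, so counts of overlapping, antisense and near-identical genes are uncertain. The 5 HTSeq summary rows entered neither the library sizes nor the fits; their shares that bear on the comparison are in the report.

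Genes were filtered by edgeR's default rule by group and scaled by TMM, and edgeR 4.0.16 in R 4.3.3 fitted the 12 dosed libraries with robust quasi-likelihood dispersions and no covariate. P-values were adjusted over all 10712 tested genes (Benjamini-Hochberg, threshold 0.05). CPM of genes are TMM-scaled, and log2 CPM used a prior of 2 counts. For the named genes, levels in undosed livers were scaled over all 18 libraries and those in dosed livers over the 12. The fit was first checked on simulated data with known changes. Library measures were compared by exact permutation tests. Measures taken against a liver's own dose, the mean correlation and the distance from the median, were not computed again for each split. Their p-values are therefore approximate. Alternatives were DESeq2 1.42.0, limma 3.58.1, other scalings and filters, a replicate block, all 18 libraries, and single libraries left out. The contrast and gene lists were chosen with earlier results of these data known. The rule for named genes, which needed symbols, fell back to the 2 IDs of widest gap in each direction among genes that do not overlap. The 41 gene lists could not be applied, as 0 of 47357 RefSeq entries carry an Ensembl ID. Each library was taken as 1 rat. Over all pairs of libraries of the same dose, the smallest chi-square was 13.8 times its degrees of freedom, more than sampling noise gives. This cannot tell 2 libraries of 1 rat from libraries of 2 rats.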

Additional observations from a re-analysis of the deposited data

Results flagged for a closer look

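Samples were marked where the gap to the nearest other liver of the dose passed Dixon's critical value for groups of 6. Among the 20 sets of values checked, 5 held such a sample, where chance marks about 1 in 20; several measures describe the same library, and the genes were picked for their separation, so the excess is no test. Replicate 5 at 1000 U/kg was marked for its mean Spearman correlation with its group (0.799, next 0.907), its median distance from the group median (0.617 log2 units, next 0.290), its level of ENSRNOG00000066252 (7.78 CPM, next 4.35) and its level of ENSRNOG00000070970 (13.01 CPM, next 2.63). Replicate 5 at 5000 U/kg was marked for ENSRNOG00000070397 (281 CPM, next 57.2).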

How the results depend on the processing

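The count of 0 called genes held under all 21 alternatives. The 4 named genes kept their direction under each alternative that tested them, which their choice for complete separation made all but certain. Genes of unadjusted p under 0.05 numbered 1651 of 19182 with no filter on low counts, 2162 with limma voom and 271 without the library of lowest correlation at each dose, a fit chosen after seeing the data. With single libraries left out they ranged from 479 to 1407, the extremes being replicate 2 at 5000 and replicate 1 at 1000 U/kg; replicate 5 at 1000 gave 514, and replicates 1 and 6 at 5000 U/kg 513 and 534. Genes that do not overlap numbered 26 with no filter (0.136% of those tested) and 32 without both libraries (0.299%). With 1 library left out they numbered 24 to 117 (0.219% to 1.07%). The count was 117 without replicate 1 at 1000 U/kg and 24 or 25 without replicates 1, 2 or 6 at 5000 U/kg. It was 27 to 66 without each of the others. Fewer livers make overlap less likely. The median log2 fold change was -0.078 with no filter, -0.00049 with limma voom, -0.014 with the replicate number as a block and -0.070 to -0.015 with 1 library left out. With 1 library left out, differences of 5000 minus 1000 U/kg ranged from -2053210 to -1413580 for gene counts (adjusted exact permutation p = 0.026 without replicate 3 at 1000 U/kg), -88.2 to 50.8 for genes detected, -4.57 to -1.94 percentage points for the share of the 10 most abundant genes, -0.13 to 0.54 for reads outside genes, -0.023 to 0.040 for the mean correlation and -0.067 to 0.087 for the distance from the median. The biological coefficient of variation at 1000 U/kg ranged from 0.322 to 0.531. The causes of these shifts were not tested. The replicate block gave 0 calls and 1005 genes of p under 0.05 before adjustment; the labels do not say what the number marks, deviations of same-numbered livers correlated over 0.1 in 4 of 6 pairs, and 2 of 6 livers at 5000 U/kg correlated best with their own number. Depth limits genes of few reads: 7 to 13 per library for the scarcest named gene at 5000 U/kg.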
